A study of Mus musculus with 12 samples.

Results

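The genes described here are 10 regulators of actin monomers and actin filament turnover: Cap1, Cfl1, Cfl2, Dstn, Pfn1, Tmsb4x, Coro1c, Wdr1, Capzb and Diaph1. They were listed by name and matched by symbol to the Ensembl identifiers of the count files, by a rule that uses no measured value, although earlier results of these data were known when the list was made. All 10 matched an identifier, out of 49671 genes in the files, and all 10 passed the filter on low counts. RNA-seq was performed on NIH 3T3 cells, an immortalised mouse embryo fibroblast line, in 4 groups of 3 libraries. Cells were transfected either with a negative control siRNA (AllStars) or with an siRNA against Lap2, the products of the Tmpo gene, that targets the membrane-anchored and the nucleoplasmic isoforms together. Each siRNA was examined in serum-starved cells (0.3% FBS) and in serum-stimulated cells (15% FBS for 45 min), and every library, the controls included, came from the same line and from transfected cells. The study used this design to ask how Lap2 depletion changes gene expression before and after serum. The labels number the libraries in a single series, and the replicate numbers used here are their order within each group. The labels do not say that the libraries were separate cultures. The p-values therefore measure the spread between these libraries, which may be technical.

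Actin cycles between monomers (G-actin) and filaments (F-actin), and the proteins encoded by these genes act at different steps of that cycle. Cofilins and destrin sever filaments and remove subunits, profilin and thymosin beta-4 bind the released monomers, capping protein closes filament ends and formins extend them. The transcription factor cofactor MRTF-A is held by G-actin and is set free to act with SRF when serum drives monomers into filaments, and many cytoskeletal genes, the actin genes among them, are known targets of MRTF-A and SRF.

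Reads had been counted per gene, with totals of 18026298 to 26265253 per library, and the 10 most abundant genes held 7.21% to 8.92% of them. This share moved with the siRNA, as did the mitochondrial share of the reads after serum. The 10 most abundant genes held 8.74% to 8.92% in starved controls against 7.21% to 7.42% in starved Lap2-depleted cells, and 8.36% to 8.88% against 7.62% to 8.15% after serum. Mitochondrial genes held 2.69% to 3.20% in stimulated controls against 3.56% to 3.82% in stimulated Lap2-depleted cells, while the starved groups overlapped (3.0% to 3.5% and 3.24% to 3.95%). Their part in the results was not tested. The targeted gene Tmpo had 2775, 2805 and 2885 normalized counts in starved cells given control siRNA and 982, 1175 and 1093 in serum-starved Lap2-depleted cells. In 15% FBS it had 3264, 3243 and 3019 in the control libraries and 767, 745 and 607 in the Lap2 siRNA libraries. The siRNA labels of all 12 libraries thus matched the Tmpo counts, which do not check the FBS labels. The 8 fibroblast markers examined (Col1a1, Col1a2, Col3a1, Fn1, Pdgfra, Pdgfrb, Thy1 and Vim) all had at least 1444 reads in every library. The 8 epithelial, blood and endothelial markers summed to 19.1 to 39.9 normalized counts per library, and Cd3e was at 0 in every library.

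Serum raised most of these genes with either siRNA, and Lap2 depletion shifted them in both directions in starved cells but mainly downward in stimulated cells. In control siRNA treated cells 9 of the 10 genes rose after serum and 0 fell, against 15.6% higher and 13.9% lower among the 18668 genes tested. In Lap2-depleted cells 9 of 10 rose and 0 fell, against 18.3% and 14.9% of all genes. Scaled to total counts, 4 members rose and 1 (Diaph1) fell in Lap2-depleted cells, with 1658 of all genes higher and 5951 lower instead of 3420 and 2777. Lap2 siRNA in 0.3% FBS raised 3 (background 17.8%) and lowered 3 (background 18.6%), and in 15% FBS it raised 0 (background 11.4%) and lowered 7 (background 12.1%). These calls use an edgeR quasi-likelihood test across all genes with a Benjamini-Hochberg adjusted p under 0.05, and log2FC is the log2 fold change of that fit. The counts of 0 were also 0 with edgeR at an unadjusted p under 0.05 and with DESeq2, but scaling to total counts gave 1 member lower after serum with Lap2 siRNA (Diaph1) and 1 higher with Lap2 siRNA in 15% FBS (Cfl1).

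Abundant genes were called more often, so the 4654 genes averaging 1000 or more normalized counts give a second background (all members but Diaph1 belong to it). Of these, serum raised 34.9% and lowered 10.5% with control siRNA, and raised 40.3% and lowered 13% with Lap2 siRNA. Lap2 siRNA raised 27.4% and lowered 30.5% of them in 0.3% FBS, and 17.2% and 23.7% in 15% FBS. With 3 higher and 3 lower in 0.3% FBS, the 10 members were thus close to the shares of abundant genes in that condition. The median log2FC of the 10 members was 0.63 for serum with control siRNA, 0.36 for serum with Lap2 siRNA, -0.05 for Lap2 siRNA in 0.3% FBS and -0.27 for Lap2 siRNA in 15% FBS. Over all genes tested these medians were -0.01, 0.00, 0.01 and 0.02. Starved and stimulated libraries did not overlap for 10 of the 10 members with control siRNA and for 9 with Lap2 siRNA, where 42% and 41.7% of all genes had groups that did not overlap. In bulk RNA, fewer cells of a kind and less RNA per cell cannot be told apart.

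The summed level of the 8 fibroblast markers moved with the siRNA as well. It was 833357 to 861581 normalized counts in starved and 867986 to 952675 in stimulated control siRNA treated cells, and 512972 to 620630.2 and 618636 to 690303 in the corresponding Lap2-depleted cells. The part of this shift in the lower values of the actin regulators was not tested. The sums did not overlap between the siRNAs in either serum condition. The markers did not all move alike. In 0.3% FBS 6 of the 8 were lower with Lap2 siRNA, led by Col3a1 (log2FC -1.67), while the fibronectin gene Fn1 was higher (0.37, edgeR adjusted p = 9.2e-05). In 15% FBS 7 of 8 were lower. Pdgfrb was not called in either condition (0.15 and 0.17, edgeR adjusted p = 0.079 and 0.059).

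**Figure D1:**
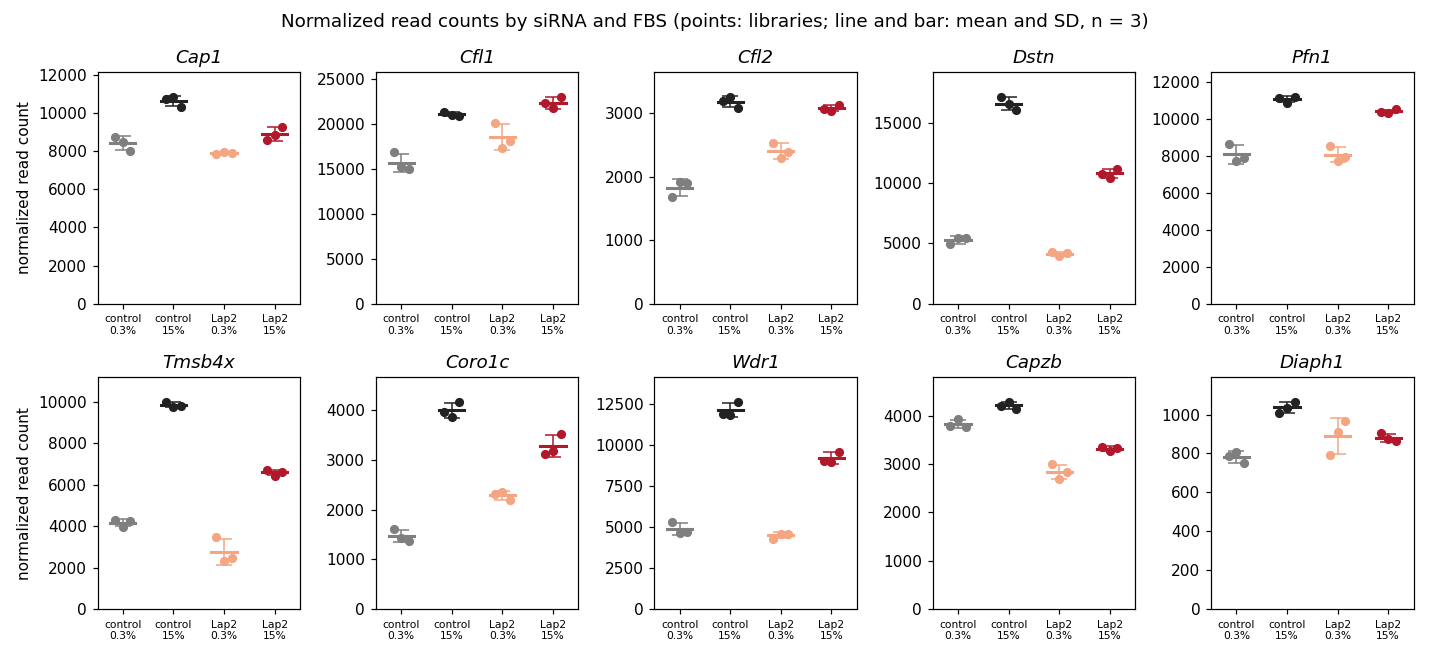
Normalized read counts of the 10 genes in each library, by siRNA (control or Lap2) and FBS (0.3% or 15%), with the mean and SD of 3 libraries per group and each vertical axis from 0. Dstn, Tmsb4x, Coro1c and Wdr1 show the widest separation between 0.3% and 15% FBS with control siRNA, while Cap1, Capzb and Diaph1 have the smallest log2FC after serum with control siRNA.

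Destrin (Dstn, also known as actin depolymerising factor, ENSMUSG00000015932, mm10 chr2:143915320-143943324, plus strand) had the largest log2FC after serum of the 10 genes, with either siRNA. It had 4945, 5449.8 and 5473 normalized counts in starved cells given control siRNA and 17145, 16582 and 16015 after serum. The starved and stimulated libraries were far apart, and the log2FC was 1.65 ± 0.06 (SE, n = 3 per group, edgeR adjusted p = 6.2e-21), or 3.13-fold. Lap2-depleted cells had 4274, 3924 and 4207 normalized counts of Dstn in 0.3% FBS and 10767, 10431 and 11178 in 15% FBS. All Lap2-depleted libraries lay below all control libraries of the same serum condition, by -0.36 ± 0.06 on the log2 scale in 0.3% FBS (edgeR adjusted p = 1.9e-05) and by -0.62 ± 0.06 after serum (edgeR adjusted p = 1.3e-09). Dstn still rose after serum in Lap2-depleted cells, by a log2FC of 1.38 ± 0.06 (edgeR adjusted p = 1.1e-18).

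Cofilin-1 (Cfl1, the non-muscle cofilin, ENSMUSG00000056201, mm10 chr19:5490455-5495201, plus strand) went the other way in starved cells. It had 16865, 15200.5 and 15004 normalized counts in starved and 21350.4, 20993 and 20887 in stimulated control siRNA treated cells. With Lap2 siRNA it had 20117, 17353 and 18114 in 0.3% FBS and 22374, 21722 and 23032 in 15% FBS. In 0.3% FBS every Lap2-depleted library lay above every control library, and the log2FC was 0.24 ± 0.06 (edgeR adjusted p = 0.0025). After serum the difference of 0.09 ± 0.06 did not pass the test (edgeR adjusted p = 0.38), with a 95% interval of -0.04 to 0.21, although scaling to total counts gave 0.17 with an edgeR adjusted p of 0.037. Serum raised Cfl1 by a log2FC of 0.43 ± 0.06 with control siRNA (edgeR adjusted p = 1.5e-06) and of 0.27 ± 0.06 with Lap2 siRNA (edgeR adjusted p = 0.00078). The increase with Lap2 siRNA was 0.04 when scaled to total counts (edgeR adjusted p = 0.64).

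Cofilin-2 (Cfl2, the muscle-type cofilin, ENSMUSG00000062929, mm10 chr12:54858817-54862877, minus strand) was higher in starved Lap2-depleted cells too. Its normalized counts were 1677, 1918 and 1903 in starved and 3194, 3264 and 3091 in stimulated control siRNA treated cells. With Lap2 siRNA they were 2539, 2302 and 2389 in 0.3% FBS and 3065, 3043 and 3139 in 15% FBS. The siRNA groups were apart in 0.3% FBS (log2FC 0.40 ± 0.07, edgeR adjusted p = 9.1e-06) and overlapped in 15% FBS (log2FC -0.05 ± 0.06, 95% interval -0.17 to 0.08, edgeR adjusted p = 0.69). The serum response of Cfl2 was a log2FC of 0.80 ± 0.07 with control siRNA (edgeR adjusted p = 6.1e-12) and 0.35 ± 0.06 with Lap2 siRNA (edgeR adjusted p = 4.4e-05), or 0.12 when the latter was scaled to total counts (edgeR adjusted p = 0.13).

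The transcripts of the 3 cofilin family genes share only short identical runs. The longest identical run between the transcripts of Cfl1 and Dstn was the 20 bases aaggatgccatcaagaagaa, and the runs shared with Cfl2 were shorter (13 bases with Cfl1, 15 with Dstn). For Cfl1, 9.11% of the 50-base windows of its transcript occur in transcripts of other genes, among them the pseudogene Gm6180 with 1 to 12 reads per library. The Cfl1 count is uncertain for reads from such windows, and the number of these reads was not examined. Windows shared with other genes made up 2.03% for Coro1c, 0.04% for Cap1 and 0.00% for the other 7 genes. Cap1 overlaps Ppt1 on the opposite strand (2505 to 3238 reads per library), and whether reads were counted by strand is not given in the sources used here.

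SRF binds a short element known as the CArG box, and the promoters of these genes were searched for it because several rose together after serum. RefSeq promoter windows on GRCm38.p6 (mm10), from 250 bases before to 50 bases after each start site, were given for 9 of the 10 genes, the exception being Diaph1. The element reads alike on both strands, so a match on either strand was found. No exact CArG box was present in the 9 windows, against 1.63% of 32851 mouse promoter windows of the same length. With at most 1 mismatched base, 3 of the 9 windows held a match, against 21.1% of all windows. The matches upstream of Dstn, Wdr1 and Cfl1 are shown with 10 bases on each side, 5′ to 3′ on the strand of the gene, with the match in capitals:
Dstn: gtggcgacttCCATGTATGGgcaaaggccg
Wdr1: gagcgcttgaCTATATATGGtcaaagctgg
Cfl1: tggctcagagCGTTTTTTGGtccattgcac
Dstn has a second match of this kind, catgcactccCCTTAACTGG at chr2:143915361-143915380 on the plus strand, which lies after the start site at the end of the window. The first Dstn stretch is chr2:143915215-143915244 on the plus strand, and its match starts 106 bases before the RefSeq start site, upstream of the annotated gene. The Wdr1 stretch is chr5:38561733-38561762 on the minus strand, and its match starts 53 bases before the RefSeq start site. It lies inside the gene as annotated in GENCODE, so it is upstream of the RefSeq start site only. The Cfl1 stretch is chr19:5490280-5490309 on the plus strand, and its match starts 165 bases before the start site. These matches describe letters in a window and were not tested for binding. Sites outside the windows were not searched. By ChIP-seq in mouse dermal fibroblasts, the study named Cap1 as an example of genes near an MRTF-A peak with an SRF motif. Those genes were also chosen for more phosphorylated RNA polymerase II on the gene body after serum in wild-type cells. In Lap2α knockout cells the study reports less MRTF-A binding and a smaller polymerase response to serum on them. The full list of those genes is not given here.

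Wdr1 encodes AIP1, which works with cofilin to take filaments apart (ENSMUSG00000005103, mm10 chr5:38526813-38563221, minus strand). Control siRNA treated cells had 5291, 4628 and 4696 normalized counts in 0.3% FBS and 11869.5, 11836 and 12609.6 in 15% FBS. Lap2-depleted cells had 4273, 4580.3 and 4594 in 0.3% FBS and 9022, 8976 and 9591 in 15% FBS. Serum raised Wdr1 by a log2FC of 1.31 ± 0.06 with control siRNA (edgeR adjusted p = 6.7e-18) and of 1.04 ± 0.06 with Lap2 siRNA (edgeR adjusted p = 4.8e-15). In 15% FBS the Lap2-depleted libraries were all lower (log2FC -0.40 ± 0.06, edgeR adjusted p = 9.6e-06). The starved groups lay close together, and their difference of -0.12 ± 0.06 did not pass the test (edgeR adjusted p = 0.15, 95% interval -0.24 to 0.0043).

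Coro1c, a coronin that binds filaments and the Arp2/3 complex (ENSMUSG00000004530, mm10 chr5:113842436-113908758, minus strand), was called in opposite directions in the 2 serum conditions, which held for Diaph1 as well under some alternative settings. Its normalized counts were 1609, 1434 and 1374 in starved and 3959, 3872 and 4168 in stimulated control siRNA treated cells, and 2310.1, 2366 and 2185 and 3122, 3181 and 3531 in the corresponding Lap2-depleted cells. The Lap2-depleted libraries were all above the controls in 0.3% FBS and all below them in 15% FBS. The log2FC for Lap2 siRNA was 0.63 ± 0.07 in 0.3% FBS (edgeR adjusted p = 4.7e-09), whereas it was -0.29 ± 0.07 in 15% FBS (edgeR adjusted p = 0.0015). Serum raised Coro1c 2.72-fold with control siRNA (log2FC 1.44 ± 0.07, edgeR adjusted p = 5.6e-18) and 1.43-fold with Lap2 siRNA (log2FC 0.52 ± 0.07, edgeR adjusted p = 1.8e-07), or by a log2FC of 0.29 when the latter was scaled to total counts (edgeR adjusted p = 0.0008).

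Cap1, the cyclase-associated protein that helps cofilin and recharges actin monomers with ATP (ENSMUSG00000028656, mm10 chr4:122859047-122886056, minus strand), moved less. Its normalized counts were 8722, 8499.6 and 8008 in starved and 10731, 10846 and 10323 in stimulated control siRNA treated cells. With Lap2 siRNA they were 7826, 7941 and 7886 in 0.3% FBS and 8598, 8817 and 9282 in 15% FBS. The siRNA groups did not overlap in either condition. The difference passed the test in 15% FBS (log2FC -0.26 ± 0.06, edgeR adjusted p = 0.0011) and did not in 0.3% FBS (-0.09 ± 0.06, edgeR adjusted p = 0.23). Serum raised Cap1 by a log2FC of 0.34 ± 0.06 with control siRNA (edgeR adjusted p = 2e-05), or 0.13 scaled to total counts (edgeR adjusted p = 0.079). With Lap2 siRNA the log2FC was 0.17 ± 0.06 (edgeR adjusted p = 0.02). That call was lost without replicate 2 or 3 of the starved or replicate 3 of the stimulated Lap2-depleted libraries (log2FC 0.17, 0.16 and 0.13 and edgeR adjusted p = 0.059, 0.087 and 0.13). It was also lost with upper-quartile scaling (0.064, edgeR adjusted p = 0.44) and in a fit of only the groups compared (0.17, edgeR adjusted p = 0.059), and the sign turned with scaling to total counts (-0.06).

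Thymosin beta-4 (Tmsb4x), which holds actin monomers in reserve and blocks their assembly (ENSMUSG00000049775, mm10 chrX:167207093-167209315, minus strand), was lower in Lap2-depleted cells in both conditions. It had 4285, 3963 and 4224 normalized counts in starved and 9984, 9764 and 9800 in stimulated control siRNA treated cells, and 3495, 2336 and 2473 and 6704, 6439 and 6621 in the corresponding Lap2-depleted cells. Replicate 1 of the starved Lap2-depleted cells stood above the other 2, with a CV of 22.9% in this group against 1.20% to 4.11% in the others, and still lay below every control. The log2FC for Lap2 siRNA was -0.59 ± 0.09 in 0.3% FBS (edgeR adjusted p = 1.8e-06) and close to that in 15% FBS (-0.58 ± 0.09, edgeR adjusted p = 3.5e-06). Leaving out any 1 library kept the value in 0.3% FBS between -0.77 and -0.46. Serum raised Tmsb4x 2.37-fold with control siRNA (log2FC 1.24 ± 0.09, edgeR adjusted p = 1.2e-13) and 2.38-fold with Lap2 siRNA (log2FC 1.25 ± 0.09, edgeR adjusted p = 1.9e-13).

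Profilin-1 (Pfn1), which delivers monomers to growing filament ends (ENSMUSG00000018293, mm10 chr11:70651850-70654644, minus strand), was the only one of the 10 genes not called for Lap2 siRNA in either condition. It had 8646, 7711 and 7851 normalized counts in starved and 11122, 10868 and 11182 in stimulated control siRNA treated cells. With Lap2 siRNA it had 8510, 7727 and 7945 in 0.3% FBS and 10345, 10325 and 10497 in 15% FBS. The starved groups overlapped (log2FC 0.00, 95% interval -0.12 to 0.12, edgeR adjusted p = 0.99), and the stimulated ones did not, at a log2FC of -0.09 ± 0.06 (95% interval -0.21 to 0.03, edgeR adjusted p = 0.33). Serum raised Pfn1 by a log2FC of 0.45 ± 0.06 with control siRNA (edgeR adjusted p = 2.2e-07) and of 0.37 ± 0.06 with Lap2 siRNA (edgeR adjusted p = 9.8e-06), or 0.14 when the latter was scaled to total counts (edgeR adjusted p = 0.074).

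Capzb, the beta subunit of the capping protein of filament barbed ends (ENSMUSG00000028745, mm10 chr4:139192899-139291818, plus strand), responded to the siRNA and little to serum. It had 3786, 3925 and 3772 normalized counts in starved and 4212, 4286 and 4143 in stimulated control siRNA treated cells, and 2994, 2695 and 2832 and 3360.3, 3266 and 3334 in the corresponding Lap2-depleted cells. Every Lap2-depleted library lay below every control library, whichever the serum. The log2FC for Lap2 siRNA was -0.43 ± 0.06 in 0.3% FBS (edgeR adjusted p = 4.9e-07), and after serum it was -0.34 ± 0.06 (edgeR adjusted p = 4.1e-05). The serum difference with control siRNA was 0.14 ± 0.06 (edgeR adjusted p = 0.081). It passed without replicate 1 of the starved Lap2-depleted cells (0.15, edgeR adjusted p = 0.013) and with DESeq2 (0.15, adjusted p = 0.022), and turned to -0.07 when scaled to total counts. With Lap2 siRNA serum raised Capzb by a log2FC of 0.22 ± 0.06 (edgeR adjusted p = 0.0035). Without replicate 2 of the starved Lap2-depleted cells this was 0.17 (edgeR adjusted p = 0.05), with upper-quartile scaling it was 0.11 (edgeR adjusted p = 0.15), and scaled to total counts it was -0.01.

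Diaph1, the formin mDia1 that nucleates and extends filaments (ENSMUSG00000024456), had the lowest level per kb of exon of the 10 genes. It had 786, 809 and 749 normalized counts in starved and 1009.8, 1036 and 1065 in stimulated cells given control siRNA. After Lap2 depletion it had 791, 911 and 968 in 0.3% FBS and 904, 875 and 863 in 15% FBS, and these groups overlapped. Serum thus raised Diaph1 with control siRNA (log2FC 0.41 ± 0.08, edgeR adjusted p = 7.5e-05), and its log2FC with Lap2 siRNA was -0.01 ± 0.08 (95% interval -0.17 to 0.14, edgeR adjusted p = 0.92). Scaled to total counts, the latter was -0.24 (edgeR adjusted p = 0.011). For Lap2 siRNA the log2FC was -0.24 ± 0.08 in 15% FBS (edgeR adjusted p = 0.023), and in starved cells it was 0.19 ± 0.08 (edgeR adjusted p = 0.061).

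The calls of Diaph1 depended on single libraries and on the scaling. In 15% FBS the difference no longer passed without replicate 2 or 3 of the control libraries (log2FC -0.24 and -0.21, edgeR adjusted p = 0.063 and 0.083) or without replicate 2 or 3 of the Lap2-depleted libraries (-0.23 and -0.23, edgeR adjusted p = 0.07 and 0.061), nor when scaled to total counts (-0.15, edgeR adjusted p = 0.17). In 0.3% FBS it passed without replicate 2 of the control (0.23, edgeR adjusted p = 0.043) or replicate 1 of the Lap2-depleted libraries (0.28, edgeR adjusted p = 0.002). It also passed there with DESeq2 (0.20, adjusted p = 0.044), scaling to total counts (0.30, edgeR adjusted p = 0.0024), upper-quartile scaling (0.20, edgeR adjusted p = 0.039) and filterByExpr (0.18, edgeR adjusted p = 0.048). With DESeq2, upper-quartile scaling and filterByExpr, Diaph1 was thus called higher in 0.3% FBS and lower in 15% FBS. Replicate 1 was the lowest of the starved Lap2-depleted libraries.

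**Figure D2:**
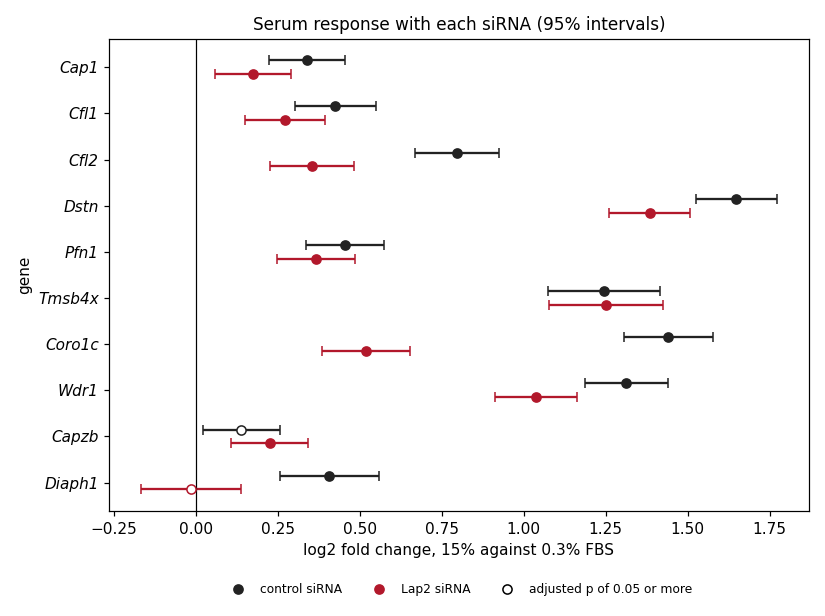
The log2 fold change of 15% against 0.3% FBS for each gene with control siRNA (black) and Lap2 siRNA (red), with 95% intervals and open points for an edgeR adjusted p of 0.05 or more. The intervals of Cfl2, Dstn, Coro1c, Wdr1 and Diaph1 do not overlap between the siRNAs, with the widest gap for Coro1c (1.44 against 0.52), and those of Tmsb4x lie on each other (1.24 and 1.25).

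The difference between the 2 serum responses was tested as the interaction of siRNA and serum, which shares all 12 libraries with the comparisons above. It was negative and past the threshold for 5 of the 10 genes, against 6.51% of all genes tested and 12.1% of those averaging 1000 or more normalized counts. It was positive and past the threshold for 0 members (7.09% of all genes and 12.9% of the abundant ones), by edgeR at an adjusted or an unadjusted p under 0.05 and by DESeq2, which called 6 negative. Coro1c differed most (-0.92 ± 0.10, edgeR adjusted p = 1.8e-08), followed by Cfl2 (-0.44 ± 0.09, edgeR adjusted p = 0.00083) and Diaph1 (-0.42 ± 0.11, edgeR adjusted p = 0.0073). The median over the 10 genes was -0.21, and 0.02 over all genes tested. Lap2 siRNA changed Tmpo by a log2FC of -1.38 in 0.3% FBS and of -2.17 in 15% FBS. The decrease in Tmpo RNA was thus larger in stimulated cells, and its part in the differences in serum response was not tested. These counts do not give the level of Lap2 protein.

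The smaller differences of Wdr1 (-0.28 ± 0.09, edgeR adjusted p = 0.034) and Dstn (-0.26 ± 0.09, edgeR adjusted p = 0.038) were each lost in 6 of the 12 fits that left out a library. For Wdr1 these were replicates 2 and 3 of the starved controls, replicates 2 and 3 of the stimulated controls and replicates 1 and 2 of the stimulated Lap2-depleted cells, with values of -0.29 to -0.24 and edgeR adjusted p from 0.053 to 0.1. For Dstn they were replicate 1 of the starved controls, replicates 1 and 2 of the stimulated controls, replicate 3 of the starved and replicates 1 and 2 of the stimulated Lap2-depleted cells, with values of -0.27 to -0.24 and edgeR adjusted p from 0.055 to 0.12. Their sign was negative in each of these fits. Without replicate 2 of the stimulated controls, or replicate 1 or 2 of the stimulated Lap2-depleted cells, 3 of the 10 genes were called. Cap1 passed only without replicate 1 of the starved Lap2-depleted cells (-0.20, edgeR adjusted p = 0.042, against -0.16 and 0.22) and with DESeq2 (-0.19, adjusted p = 0.037).

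For the other members the difference was not detectable at this number of libraries. Tmsb4x had a value of 0.00 with a 95% interval of -0.24 to 0.25, Pfn1 -0.09 with -0.26 to 0.08, Capzb 0.09 with -0.08 to 0.25, and Cfl1 -0.15 with -0.33 to 0.02. Their edgeR adjusted p ranged from 0.3 (Cfl1) to 0.99 (Tmsb4x).

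**Figure D3:**
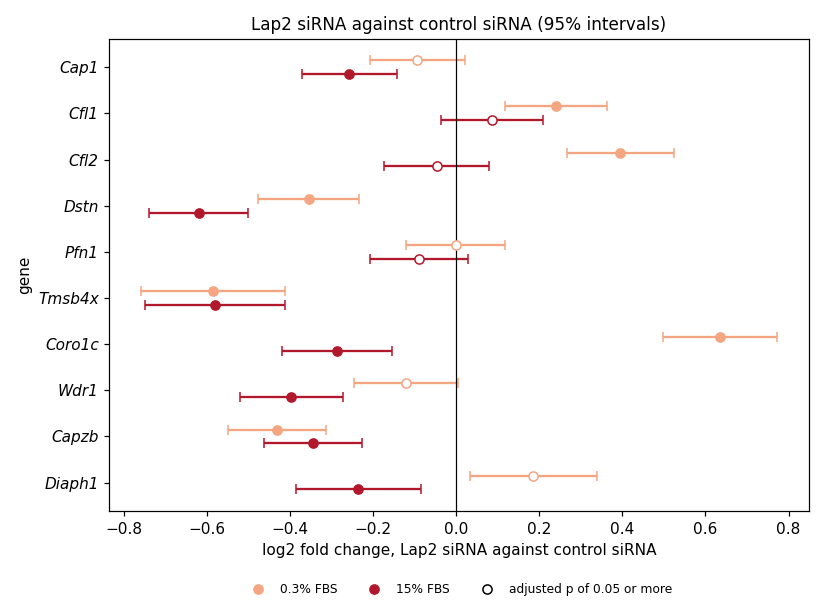
The log2 fold change of Lap2 siRNA against control siRNA for each gene in 0.3% FBS (light) and 15% FBS (dark), with 95% intervals and open points for an edgeR adjusted p of 0.05 or more. Dstn, Tmsb4x and Capzb lie below 0 in both conditions, and Coro1c lies at 0.63 in 0.3% FBS and at -0.29 in 15% FBS.

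Across the 10 genes, the effect of Lap2 siRNA therefore took several forms. Dstn, Tmsb4x and Capzb were lower in both conditions (3 genes), Cap1, Wdr1 and Diaph1 passed the test as lower in 15% FBS only (3 genes), and Cfl1 and Cfl2 passed as higher in 0.3% FBS only (2 genes). Coro1c was higher in 0.3% and lower in 15% FBS, and Pfn1 passed in neither. How often all genes tested, or the abundant ones, fall into each of these patterns was not counted. The 2 comparisons use different libraries, and a pass in a single condition is not by itself a difference between them. The siRNA groups did not overlap for 8 of the 10 genes in 0.3% FBS and for 9 in 15% FBS, where 43.4% and 38.8% of all genes tested had groups that did not overlap.

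The order of the levels depended on the length by which counts were divided. Per kb of all annotated exons, serum-starved control siRNA treated cells had 5517 ± 360 normalized counts of Cfl1 (SD, n = 3), 3355 ± 210 of Pfn1, 3032 ± 125 of Tmsb4x, 2768 ± 156 of Dstn and 2407 ± 105 of Cap1. The neighbours Pfn1, Tmsb4x and Dstn differed by little more than their spread. Capzb (1160.3 ± 25.6), Cfl2 (561 ± 41.3), Wdr1 (548 ± 40.9), Coro1c (152 ± 12.7) and Diaph1 (123 ± 4.8) followed, with Cfl2 and Wdr1 inside each other's spread. After serum Dstn stood first with 8676 ± 295, above Cfl1 with 7411 ± 85.4 and Tmsb4x with 7184 ± 86.1. In stimulated Lap2-depleted cells Cfl1 was first with 7868 ± 230, and Dstn had 5647 ± 196.

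All annotated exons include retained introns, and a length chosen after the data were seen, the longest protein-coding transcript, changed parts of this order. It put Pfn1 first in all 4 groups, with 9372 ± 586 normalized counts per kb in starved and 12843 ± 194 in stimulated control siRNA treated cells. Dstn (8676 ± 295) and Cfl1 (8954 ± 103) were then within their spread in stimulated control siRNA treated cells, and in starved ones Wdr1 (1577 ± 118) stood well above Cfl2 (623 ± 45.9). Cfl1 was above Cfl2 and Diaph1 was lowest in every group by either length.

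Ratios within a library do not depend on the scaling between libraries and were examined after the values had been seen, without a test. The ratio of Dstn to Cfl1 reads per exon base was 0.436, 0.534 and 0.543 in starved and 1.20, 1.18 and 1.14 in stimulated control siRNA treated cells, and 0.316, 0.337 and 0.346 and 0.716, 0.715 and 0.722 in Lap2-depleted cells. Each group stood apart from the other 3. Serum multiplied this ratio by 2.32 with control siRNA and by 2.16 with Lap2 siRNA, and the Lap2-depleted means were 0.66 and 0.61 of the control means in 0.3% and 15% FBS. Dstn thus made up 31.3% ± 2.3 of the 3 cofilin family genes per exon base in starved controls and 50.8% ± 0.6 after serum, and 23.0% ± 0.8 and 39.1% ± 0.2 in Lap2-depleted cells.

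The ratio of Tmsb4x to Pfn1, of the monomer-holding to the monomer-delivering protein's transcript, was 0.905 ± 0.037 in starved and 1.56 ± 0.02 in stimulated cells given control siRNA (SD, n = 3). After Lap2 depletion it was 0.599 ± 0.105 and 1.11 ± 0.02, lower in all 3 libraries of each condition. The ratio of Wdr1 to Cfl1 was 0.099 ± 0.002 and 0.184 ± 0.008 in control siRNA treated cells and 0.078 ± 0.009 and 0.131 ± 0.002 in Lap2-depleted cells. Not every ratio computed was lower with Lap2 siRNA. In 0.3% FBS the mean ratio of Cfl2 to Cfl1 was 0.1134 with Lap2 siRNA and 0.1023 with control siRNA, and the groups overlapped. In 15% FBS it was 0.12 against 0.1315. The mean ratio of Capzb to Cap1 was 0.3817 against 0.4826 in 0.3% FBS and 0.3956 against 0.4197 in 15% FBS. Where these ratios stand relative to 1 depends on the exon lengths, while their changes between groups do not.

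**Figure D4:**
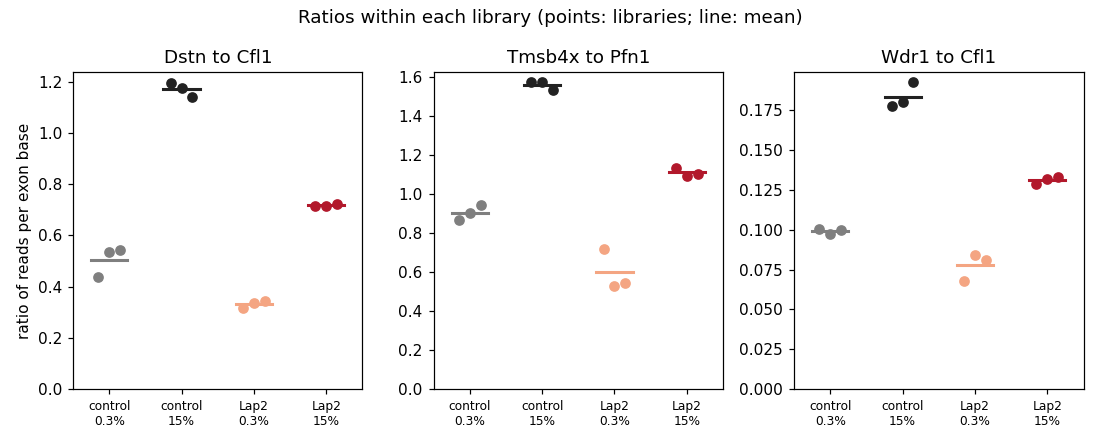
Ratios of reads per exon base within each library for Dstn to Cfl1, Tmsb4x to Pfn1 and Wdr1 to Cfl1, by siRNA and FBS, with points for libraries and lines for the means of 3. The Lap2-depleted libraries lie below the control libraries of the same serum condition in all panels, for example at 0.715 to 0.722 against 1.14 to 1.20 for Dstn to Cfl1 in 15% FBS. The ratios of Cfl2 to Cfl1 and of Capzb to Cap1 are not shown.

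The actin genes themselves rose after serum with either siRNA. The log2FC with control siRNA was 1.54 ± 0.06 for Actb, 1.87 ± 0.06 for Actg1 and 2.56 ± 0.08 for Acta2, the smooth muscle actin. With Lap2 siRNA it was 1.25 ± 0.06, 1.67 ± 0.06 and 1.95 ± 0.08. All 3 were lower in Lap2-depleted cells in 15% FBS, with values of -0.37 (edgeR adjusted p = 2.5e-06), -0.30 (edgeR adjusted p = 0.00018) and -1.73 (edgeR adjusted p = 2.1e-17). In 0.3% FBS Acta2 was lower (-1.12, edgeR adjusted p = 9.7e-14), while Actb (-0.09) and Actg1 (-0.09) did not pass (edgeR adjusted p = 0.22 each) and took a positive sign when scaled to total counts, although Actg1 passed without replicate 1 of the starved Lap2-depleted cells (-0.14, edgeR adjusted p = 0.011). Dstn, Wdr1 and Cap1 gave values of -0.62, -0.40 and -0.26 in 15% FBS, beside the -0.37 of Actb.

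A further 79 genes of the actin cycle and its control were listed, of which 73 passed the filter on low counts. Serum raised 27 and lowered 4 of them with control siRNA, and raised 28 and lowered 8 with Lap2 siRNA. Lap2 siRNA raised 19 and lowered 18 in 0.3% FBS, and raised 7 and lowered 13 in 15% FBS. Among all genes tested, 15.6% were higher and 13.9% lower for serum with control siRNA, 18.3% and 14.9% for serum with Lap2 siRNA, 17.8% and 18.6% for Lap2 siRNA in 0.3% FBS and 11.4% and 12.1% for Lap2 siRNA in 15% FBS. Among the abundant genes these shares were 34.9% and 10.5%, 40.3% and 13%, 27.4% and 30.5%, and 17.2% and 23.7%. When scaled to total counts, serum raised 14 and lowered 18 with control siRNA, and raised 16 and lowered 29 with Lap2 siRNA.

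Among 11 other G-actin binding genes tested, serum raised 2 and lowered 4 with control siRNA. The shares were 15.6% and 13.9% of all genes, and 34.9% and 10.5% of the abundant ones. Of the twinfilins, which sequester monomers, Twf1 rose (log2FC 0.39, edgeR adjusted p = 6.6e-06) and Twf2 fell (-0.58, edgeR adjusted p = 3.1e-05). Phactr1, whose RPEL motifs bind G-actin like those of MRTF-A, was lower with Lap2 siRNA in 0.3% FBS (-0.97, edgeR adjusted p = 1.4e-12), and Spire1, an actin nucleator, in 15% FBS (-0.72, edgeR adjusted p = 1e-06). Of 18 genes for severing, disassembly and cofilin control, Lap2 siRNA raised 4 and lowered 4 in 0.3% FBS. The shares there were 17.8% and 18.6% of all genes, and 27.4% and 30.5% of the abundant ones. In 15% FBS Lap2 siRNA raised 1 and lowered 4 of the 18. The shares there were 11.4% and 12.1% of all genes, and 17.2% and 23.7% of the abundant ones. The gelsolin-like Capg was higher in both (0.65 and 0.39, edgeR adjusted p = 3.2e-09 and 5.8e-05), and Mical1, an enzyme that oxidises filaments, was lower in both (-1.24 and -1.05, edgeR adjusted p = 2.4e-11 and 9e-10). Tesk2, a kinase that phosphorylates cofilin, rose after serum with control siRNA (1.01, edgeR adjusted p = 1.9e-10) and with Lap2 siRNA (0.98, edgeR adjusted p = 2.1e-09).

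Of 9 filament end capping genes tested, Lap2 siRNA raised 1 and lowered 4 in 0.3% FBS, and raised 1 and lowered 2 in 15% FBS. The shares of all genes were 17.8% and 18.6% in 0.3% FBS, and 11.4% and 12.1% in 15% FBS. Those of the abundant genes were 27.4% and 30.5%, and 17.2% and 23.7%. In 0.3% FBS Add3, an adducin, was lower (-0.82, edgeR adjusted p = 1.9e-11) and Cd2ap, which binds capping protein, was higher (0.51, edgeR adjusted p = 6.1e-07). Of 12 formins, which nucleate and extend filaments as Diaph1 does, Lap2 siRNA raised 6 and lowered 1 in 0.3% FBS. The shares there were 17.8% and 18.6% of all genes, and 27.4% and 30.5% of the abundant ones. Among the formins past the threshold that averaged 100 or more normalized counts, Fmn1 had the largest log2FC (0.72, edgeR adjusted p = 5.4e-07). In 15% FBS 2 formins passed, Fmnl3 and Fhod1, both higher. Of all genes 11.4% were called higher there, and of the abundant ones 17.2%. Fmnl3 (0.26, edgeR adjusted p = 0.011) did not pass without replicate 3 of the stimulated Lap2-depleted cells (0.12, edgeR adjusted p = 0.27), and Fhod1 (0.25, edgeR adjusted p = 0.018) did not pass without replicate 1 of the stimulated controls or replicate 1 or 2 of the stimulated Lap2-depleted cells (0.22, 0.19 and 0.24, edgeR adjusted p = 0.094, 0.13 and 0.059). Of 9 genes of the Arp2/3 complex, which branches filaments, serum raised 5 with control siRNA (15.6% of all and 34.9% of abundant genes) and 6 with Lap2 siRNA (18.3% and 40.3%), led by Arpc4 (1.15 and 0.92, edgeR adjusted p = 7.8e-17 and 4.3e-14). Its subunit Arpc1a was lower with Lap2 siRNA in 0.3% FBS (-0.76, edgeR adjusted p = 2.5e-11) and again after serum (-0.48, edgeR adjusted p = 8e-07). Of 2 genes of nuclear actin transport, Ipo9, the import receptor for actin with cofilin, was higher with Lap2 siRNA in 0.3% FBS (0.26, edgeR adjusted p = 0.001).

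The genes whose pattern over the 12 libraries came closest to a member were sought among 10448 tested genes averaging 100 or more normalized counts, by the root mean square difference of centred log2 CPM. This was done for the 5 members whose group means spanned at least 0.58 on the log2 scale. Wdr1 was followed closest by Myo1c (0.05), Kctd10 (0.09) and Thy1 (0.10), Dstn by Usp53 (0.11), Cav1 (0.12) and Tagln2 (0.14), and Tmsb4x by Cnn2 (0.14), Cav1 (0.16) and Tmem41b (0.17). Coro1c was closest to Ctu2 (0.11), Rhoj (0.11) and Ctps (0.13), and Cfl2 to Mindy3 (0.08), Gm9855 (0.08) and Srsf3 (0.08). Cav1 was near both Dstn and Tmsb4x. Between the members, Pfn1 and Cfl1 were nearest (0.11) and Dstn and Diaph1 farthest apart (0.71).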

How the data were processed

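RNA was measured by RNA-seq in NIH 3T3 cells, and groups were taken from the labels (12 libraries, 3 per group). Replicate numbers were given by the order of the labels within a group. The authors depleted ribosomal RNA, made directional libraries, aligned reads with TopHat2 (default settings, in Chipster) to mm10, counted reads per gene with HTSeq and deposited the counts without normalization. Tool versions, the gene annotation and the strand setting of the counting are not given in the sources used here. The authors' own test was DESeq (DESeq2 in the submitters' processing notes), with a cutoff of counts above 1.

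From the deposited counts, edgeR 4.0.16 in R 4.3.3 was run with TMM normalization, glmQLFit and glmQLFTest on group means over all 12 libraries, for the 18668 genes that had counts above 1 in 3 or more libraries, with Benjamini-Hochberg adjustment at 0.05. To give normalized counts, each count was multiplied by the mean of the TMM-adjusted library sizes over the size of its own library. The SE is the log2FC divided by the square root of its F, and 95% intervals are 1.96 SE. The most alike genes used log2 CPM with a prior count of 2. Lengths and overlaps were taken from GENCODE M21, of whose genes in the files 91.5% had the same start and end, and promoters from RefSeq. Of the gene identifiers, 99.3% had a symbol. Identical counts were found in 0 pairs of libraries.

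The members and lists were chosen with earlier results of these data known. Besides the members, the text names Tmpo, the actin and marker genes, and, from each list and contrast, the genes with the largest and smallest log2FC past the threshold averaging 100 or more normalized counts, of which not all are printed. The genes of 1 further list are part of the summed counts, and the list itself is not reported here. Alternatives were DESeq2 1.42.0, scaling to total counts, upper-quartile scaling, no filter, filterByExpr, fits of only the groups compared, a replicate block and each library left out in turn. On simulated counts for 18126 genes, with 200 changed by a log2FC of 1 between siRNAs in 15% FBS, the test called 94.5% of the changed and 13 of the unchanged genes. Every simulated gene had a dispersion of 0.01, the groups did not differ otherwise, and the changed genes had means above 10. The simulation therefore does not give the share of smaller changes that would be called in these data. Counts of these depths gave members SEs of 0.06 to 0.12. Tables and figures were made with matplotlib 3.10.9, numpy 2.4.6 and pandas 2.3.3 under Python 3.11.15.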

Additional observations from a re-analysis of the deposited data

Results flagged for a closer look

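With groups of 3 libraries, no search for outlying libraries was made. What stood out were differences between the serum responses of Lap2-depleted and control siRNA treated cells, tested as the interaction of siRNA and serum (edgeR adjusted p under 0.05). A negative value means a smaller log2FC after serum with Lap2 siRNA. Among the 10 actin regulators the values were -0.92 for Coro1c, -0.44 for Cfl2, -0.42 for Diaph1, -0.28 for Wdr1 and -0.26 for Dstn. Of the genes compared with them, Actb gave -0.29 and Acta2 -0.61, and the siRNA target Tmpo gave -0.79. The Tmpo value means a larger decrease of Tmpo RNA with Lap2 siRNA in 15% FBS (log2FC -2.17) than in 0.3% FBS (-1.38). The part of this in the other values was not tested. Of the 73 further actin genes tested, 7 had positive and 8 had negative values past the threshold. The shares were 7.09% and 6.51% of all genes, and 12.9% and 12.1% of those averaging 1000 or more normalized counts. Among them, 4 of 12 formins had negative values past the threshold, Fmn1 (-0.65), Diaph3 (-0.55), Inf2 (-0.47) and Fmnl3 (-0.37). Diaph3 and Inf2 were named after their values had been seen, and their calls were not examined with libraries left out. Negative values past the threshold were also found for Mical2 (-0.60), Rock2 (-0.49), Ipo9 (-0.31) and the Arp2/3 subunit gene Arpc5 (-0.27). Positive values were found for Phactr1 (0.68), Rnd3 (0.59), Add3 (0.54), the second beta thymosin Tmsb10 (0.44) and Arpc1a (0.28). Several of these calls were lost (edgeR adjusted p of 0.05 or more) when 1 library was left out. Ipo9 was lost without replicate 2 of the stimulated Lap2-depleted cells (-0.29), and Fmnl3 without replicate 1 or 2 of them (-0.33 and -0.31). Arpc5 was lost without replicate 1 of the starved controls, replicate 1 or 2 of the stimulated controls or replicate 1 or 2 of the stimulated Lap2-depleted cells (-0.27 to -0.24). Arpc1a was lost in 10 of the 12 such fits (0.23 to 0.30) and passed only without replicate 1 of the starved or replicate 1 of the stimulated Lap2-depleted cells. Dstn and Wdr1 were each lost in 6 of 12 such fits, as given above.

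Tmsb4x and Tmsb10 encode closely related monomer-binding thymosins. The difference in serum response was 0.00 for Tmsb4x and 0.44 for Tmsb10, and whether these values differ from each other was not tested.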

How the results depend on the processing

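For the 10 genes in 5 comparisons, 565 of 600 values from fits that left out a library kept their direction and their side of the threshold, as did 50 of 50 with the replicate number as a block, 45 of 50 with DESeq2, 45 of 50 with upper-quartile scaling, 49 of 50 with no filter, 48 of 50 with filterByExpr, 38 of 40 in fits of only the groups compared and 35 of 50 with scaling to total counts. The block changed no count of called members (9, 9, 6, 7 and 5).

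Scaling to total counts moved the median log2FC of all genes by -0.21 and -0.23 for serum with control and Lap2 siRNA and by 0.11 and 0.09 for Lap2 siRNA in 0.3% and 15% FBS. It left 5 members called for serum with Lap2 siRNA (4 higher, and Diaph1 lower) against 9, and all genes called higher and lower were 1632 and 5847 (against 2915 and 2597) and 1658 and 5951 (against 3420 and 2777) for serum with control and Lap2 siRNA, and 3471 higher (against 2125) for Lap2 siRNA in 15% FBS. Of the further actin genes it called 30 higher against 19 in 0.3% and 13 against 7 in 15% FBS. Upper-quartile scaling called 9 lower against 4 and 15 against 8 for serum with control and Lap2 siRNA, fits of only the groups compared 21 lower against 13 for Lap2 siRNA in 15% FBS, and DESeq2 13 lower against 8 for the interaction. Leaving out 1 library gave 3 to 6 members called for the interaction (5 with all). For the further actin genes it gave 4 lower after serum with Lap2 siRNA (against 8) without replicate 1 or 2 of the stimulated Lap2-depleted cells, 4 higher for Lap2 siRNA in 15% FBS (against 7) without replicate 3 of these, and 5 lower for the interaction (against 8) without replicate 2 of these. Without replicate 1 of the starved Lap2-depleted cells it gave 22 lower for Lap2 siRNA in 15% FBS (against 13) and 18 lower for the interaction (against 8), with 1973 of all genes lower (against 1216), and without replicate 2 of the starved controls 852 of all genes were higher (against 1324). The cause of these moves was not tested.

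The sign turned with scaling to total counts for serum with control siRNA in Tmpo (-0.036), Capzb (-0.069), Capza1 (-0.030), Daam2 (-0.0081), Rhoa (-0.038) and Ipo9 (-0.040), for serum with Lap2 siRNA in Cap1 (-0.056), Capzb (-0.0056), Capza2 (-1.7e-05) and Arhgef2 (-0.033), for Lap2 siRNA in 0.3% FBS in Cap1 (0.016), Pfn1 (0.11), Actb (0.021) and Actg1 (0.015), and in 15% FBS in Cfl2 (0.040). It also turned for Pfn1 in 0.3% FBS with DESeq2 (0.012) and upper-quartile scaling (0.014). The Tmsb4x interaction was -0.020 with DESeq2, -0.018 with total counts, -0.012 with upper-quartile scaling, -0.00068 with no filter and -0.00032 with filterByExpr, and -0.13 to 0.18 with a library left out. Leaving out a library gave -0.025 to 0.064 for Pfn1 with Lap2 siRNA in 0.3% FBS and -0.11 to 0.031 for Diaph1 after serum with Lap2 siRNA. Correlations of same-numbered libraries in their deviations from the group means were -0.03 to 0.04 over 18 pairs, with 0 above 0.1. These correlations cannot exclude a pairing of the libraries. They include genes with low counts, and the replicate numbers are only the order within each group. Levels per kb were also computed by the longest protein-coding transcript, an alternative chosen after seeing the data, which changed the order of members. Each member had 694 or more reads in each library, and 3 libraries per group limit the detection of small differences.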
